A study of Homo sapiens with 6 samples.

Results

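Matricellular genes encode secreted proteins that sit in the extracellular matrix and signal to cells without building its fibres, and several of them are read in cell culture as output of the Hippo pathway. The 10 genes described here are CCN1 and CCN2 (formerly CYR61 and CTGF), ANKRD1, THBS1, THBS2, SPARC, TNC, FN1, SPP1 and TGFBI. The genes were taken by name, as a set of related function, with earlier results of these data known. All probes of the bead array annotated to any of them, by current or former symbol, were taken, which gave 15 of 47231 probes. Searching by the former symbols added no further probe.

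The samples were U251 cells, an established human glioblastoma line grown in serum-containing medium. 3 arrays carried RNA of shCypB cells, transduced with a lentiviral pLKO1.5 vector encoding an shRNA against cyclophilin B (gene PPIB), and 3 arrays carried RNA of shCON cells, transduced with the same vector type encoding a non-target shRNA. RNA was taken 5 days after transduction, and all 6 samples therefore carry a lentiviral shRNA. The labels call the samples biological replicates, with 3 in each group. One shRNA against cyclophilin B was used, so loss of cyclophilin B and other effects of that shRNA cannot be told apart. RNA was bulk, so a changed share of cells and a changed amount of RNA per cell cannot be told apart either.

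In the Hippo pathway a kinase cascade holds the coactivators YAP and TAZ in the cytoplasm. When the cascade is idle, for example in spread cells on a stiff matrix, YAP and TAZ enter the nucleus and act through DNA-binding TEAD factors. CCN1, CCN2 and ANKRD1 are the customary target genes of this step. The matricellular proteins in turn bind integrins, syndecans, CD44 and CD47 on the cell surface. In glioblastoma, osteopontin (SPP1), tenascin-C (TNC) and the thrombospondins are known parts of the tumour matrix.

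The promoter windows of the members are shown first, because part of the set is named for its response to YAP, which acts through TEAD factors. Binding of TEAD factors was not measured. RefSeq (GRCh38.p14) windows of 300 bases, from 250 bases before to 50 after the transcription start, matched 9 of the 10 members. The exception was CCN1. Each window was searched on both strands for the TEAD core motif GGAATG, the TATA box TATAAA and the CArG box bound by SRF. A loose AP-1-like pattern, TGANTCA with any middle base, was searched as well. The windows of CCN2, ANKRD1, THBS1 and THBS2 hold the TEAD motif, and that of SPP1, the member with the greatest rise, does not. They are given 5′ to 3′ on the strand of the gene, in lower case, with TEAD motifs of either strand in capitals:
CCN2, chr6:131951323-131951622, minus strand: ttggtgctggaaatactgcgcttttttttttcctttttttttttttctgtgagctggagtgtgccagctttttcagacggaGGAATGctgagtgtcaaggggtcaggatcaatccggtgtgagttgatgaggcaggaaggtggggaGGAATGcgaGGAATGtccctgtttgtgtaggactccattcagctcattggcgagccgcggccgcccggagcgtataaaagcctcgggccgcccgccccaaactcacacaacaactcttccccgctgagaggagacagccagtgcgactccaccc
ANKRD1, chr10:90921038-90921337, minus strand: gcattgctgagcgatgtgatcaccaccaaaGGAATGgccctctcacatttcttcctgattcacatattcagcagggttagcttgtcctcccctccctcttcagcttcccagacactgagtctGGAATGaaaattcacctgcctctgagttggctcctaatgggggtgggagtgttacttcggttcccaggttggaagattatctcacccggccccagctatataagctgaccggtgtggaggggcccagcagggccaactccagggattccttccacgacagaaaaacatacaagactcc
THBS1, chr15:39580829-39581128, plus strand: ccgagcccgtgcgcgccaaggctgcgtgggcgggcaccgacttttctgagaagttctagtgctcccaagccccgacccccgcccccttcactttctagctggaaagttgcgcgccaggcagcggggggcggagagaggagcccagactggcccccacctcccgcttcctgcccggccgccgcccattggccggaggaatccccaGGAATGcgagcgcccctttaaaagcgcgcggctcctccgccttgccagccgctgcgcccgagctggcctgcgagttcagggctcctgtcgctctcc
THBS2, chr6:169253797-169254096, minus strand: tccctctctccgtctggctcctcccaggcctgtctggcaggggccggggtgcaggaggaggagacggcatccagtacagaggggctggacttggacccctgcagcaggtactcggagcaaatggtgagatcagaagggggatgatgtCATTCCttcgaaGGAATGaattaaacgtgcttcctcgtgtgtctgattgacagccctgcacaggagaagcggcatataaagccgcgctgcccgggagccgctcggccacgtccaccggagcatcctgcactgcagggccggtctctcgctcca
SPP1, chr4:87975464-87975763, plus strand: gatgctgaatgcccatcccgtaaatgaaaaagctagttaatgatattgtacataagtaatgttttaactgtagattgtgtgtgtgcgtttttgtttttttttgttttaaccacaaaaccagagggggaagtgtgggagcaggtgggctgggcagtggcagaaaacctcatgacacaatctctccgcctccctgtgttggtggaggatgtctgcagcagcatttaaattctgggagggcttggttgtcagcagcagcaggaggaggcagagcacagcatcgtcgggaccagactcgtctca

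CCN2 held 3 TEAD motifs, which began 169, 104 and 95 bases before the start. ANKRD1 held 2 (220 and 128 bases before the start) and THBS2 held 2, of which the one 103 bases before the start reads on the opposite strand and the other begins 91 bases before it. THBS1 held 1, at 46 bases, and SPARC held 1 on the opposite strand, at 17 bases. No match was found in the windows of TNC, FN1, SPP1 and TGFBI. In all, 5 of 9 member windows held the motif, against 14.0% of all 35116 RefSeq windows and 11.3% of the 12555 windows of genes tested here. TATA boxes were found in CCN2 and THBS2 (11.5% of all windows) and a CArG box in 0 of 9 (1.29%). The AP-1-like pattern was found in ANKRD1 (7.71% of all windows), where it reads tgattca, without the C or G in the middle of the AP-1 consensus. No TEAD match overlapped a match of another motif. A match is a description of these letters only.

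**Figure D1:**
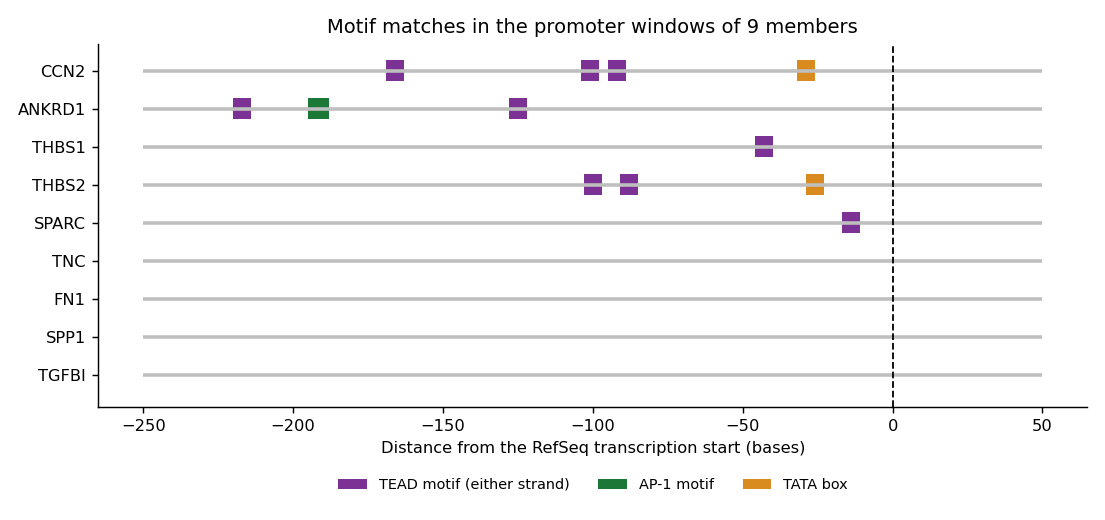
Matches of the TEAD and TATA motifs and of the AP-1-like pattern in the promoter windows of 9 members, plotted by distance from the RefSeq transcription start in bases (dashed line at the start). The 3 TEAD matches of CCN2 and the 2 each of ANKRD1 and THBS2 lie between 220 and 91 bases before the start, and TNC, FN1, SPP1 and TGFBI have none.

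Values below are log2 signals after background correction and quantile normalization, and log2 changes are shCypB minus shCON with the standard error of the limma fit. Probes detected (p below 0.05 against the negative controls) on 3 or more of the 6 arrays entered the test, 17608 in all, and calls were made at an adjusted p below 0.05 over these probes. Signals of different probes are not on a common scale, so levels are compared only within a probe. The targeted gene went with the labels. PPIB was detected on 0 of 3 shCypB and 3 of 3 shCON arrays and was at least 1.45-fold lower in shCypB (limma adjusted p = 0.0034). Its only probe was dim also in shCON, with signals of 6.05, 5.68 and 5.35 where the lowest detected signals were 5.29, 5.15 and 5.28. The size of the fall is thus uncertain, with log2 changes of -1.26 to -0.56 over 13 alternatives.

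Of the 10 members, 9 could be tested, through 12 probes. The members were chosen with earlier results of these data known, so the shares below are descriptions only. SPP1, TGFBI, THBS2 and CCN1 were higher in shCypB cells, and CCN2, THBS1 and TNC were lower. ANKRD1 and SPARC did not pass, and FN1 was not detected widely enough to be tested. Counted by gene, 4 of 9 were higher, against 23.1% of all 10517 tested genes, and 3 of 9 were lower, against 20.8%. Counted by probe, 5 of 12 were higher, against 20.3% of tested probes, and 5 of 12 lower, against 18.2%. All 12 tested member probes were detected at p below 0.01 on every array, and among the 12180 probes of that kind 21.9% were higher and 22.8% lower. The values of the groups did not overlap for 11 of the 12 probes, the exception being SPARC, against 50.4% of all tested probes. That share includes dim probes, and it was not computed for the 12180 probes alone. In the intensities before normalization between arrays, 8 of the 12 did not overlap, against 39.9% of all tested probes, and the second TNC probe, ANKRD1 and both CCN2 probes did. The median log2 change of the 9 genes was 0.09, against 0.03 over all tested genes, with members spread to either side.

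**Figure D2:**
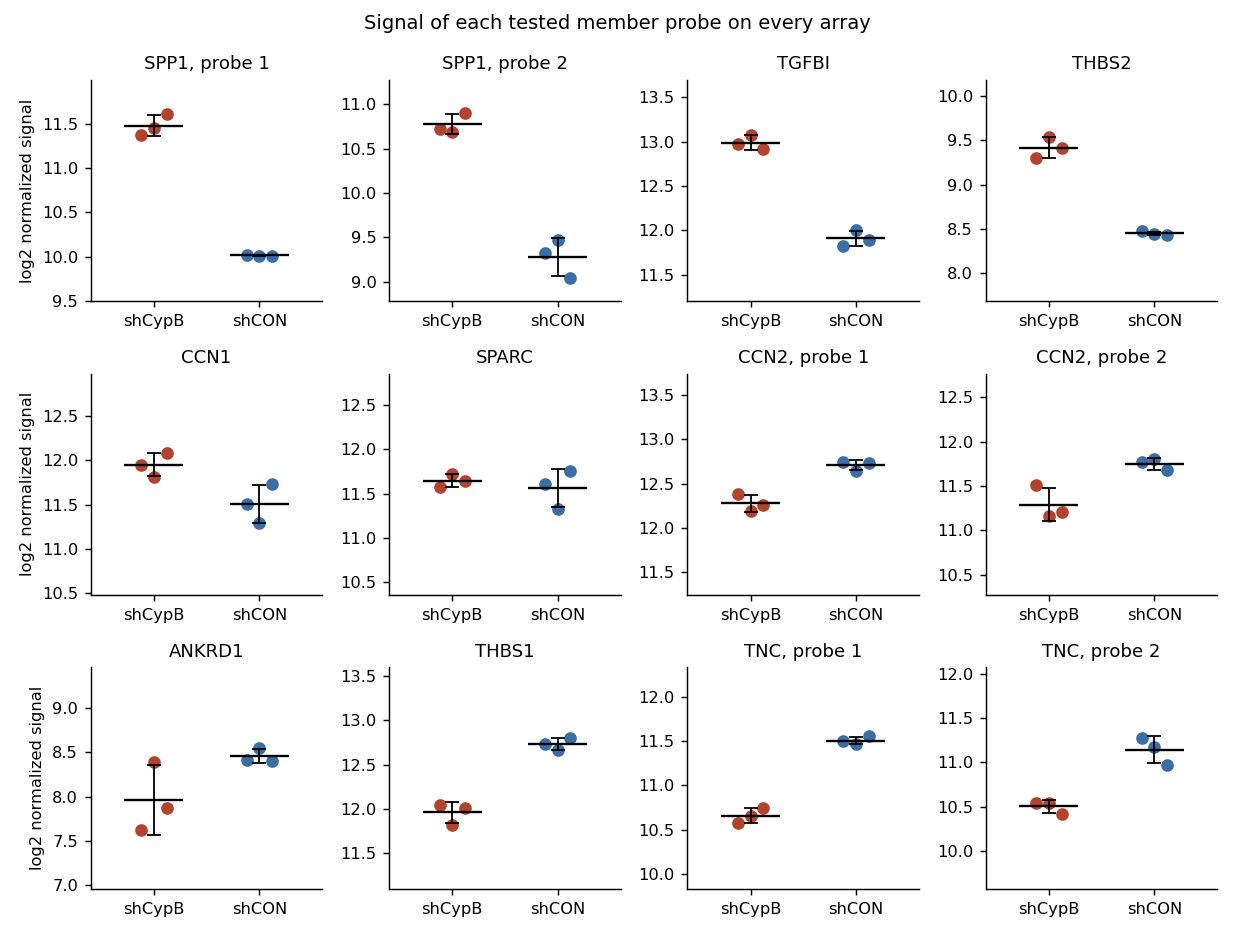
Log2 normalized signal of the 12 tested member probes on every array, shCypB left and shCON right in each panel, with points for arrays, a line for the mean and bars for the SD (n = 3). Every panel spans the same 2.5 log2 units around its own centre, and the groups overlap only for SPARC.

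SPP1 encodes osteopontin, a secreted phosphoprotein that binds alpha-v integrins and CD44. Its first probe (ILMN_1651354) had signals of 11.38, 11.45 and 11.60 on the shCypB arrays, against 10.02, 10.01 and 10.01 on the shCON arrays. The second probe (ILMN_2374449) had signals of 10.73, 10.69 and 10.91 in shCypB, against 9.33, 9.47 and 9.04 in shCON. With either probe all shCypB arrays lay more than 1 log2 unit above all shCON arrays. The change was 1.46 ± 0.10 by the first probe (limma adjusted p = 8.1e-05), a 2.76-fold rise with a 95% interval of 2.35 to 3.23. By the second it was 1.49 ± 0.13 (adjusted p = 0.00022), or 2.82-fold. Only 155 of 17608 tested probes rose more than the first of these. The non-normalized intensities already differed by this much, with 3053, 2880 and 3492 in shCypB and 949, 1221 and 816 in shCON for the first probe.

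TGFBI encodes a TGF-beta-induced protein that is secreted and binds collagens and integrins. It had signals of 12.98, 13.08 and 12.92 in shCypB, against 11.82, 12.00 and 11.90 in shCON. The lowest shCypB array was 0.91 above the highest shCON array. This is a 2.12-fold rise (95% interval 1.81 to 2.48, limma adjusted p = 0.00024), and 2.62% of tested probes rose more.

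The thrombospondins THBS1 and THBS2 encode closely related trimeric matrix glycoproteins that bind CD36 and CD47 and restrain new vessel growth. They moved in opposite directions. THBS2 had signals of 9.30, 9.54 and 9.42 on the shCypB arrays, against 8.47, 8.44 and 8.44 on the shCON arrays. Its change of 0.97 ± 0.10 (limma adjusted p = 0.00037) corresponds to a 1.96-fold rise. THBS1 had signals of 12.05, 11.82 and 12.01 in shCypB, against 12.74, 12.67 and 12.80 in shCON. Its log2 change was -0.77 ± 0.10 (adjusted p = 0.0011), so that shCON was 1.71-fold above shCypB. Neither pair of groups overlapped, with gaps of 0.83 for THBS2 and 0.62 for THBS1 between the nearest arrays. Both genes hold TEAD motifs in the windows shown above.

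TNC encodes tenascin-C, a large hexameric glycoprotein of the glioma and wound matrix that weakens adhesion to fibronectin. Its first probe (ILMN_1719759) had signals of 10.58, 10.66 and 10.74 in shCypB, against 11.50, 11.47 and 11.55 in shCON, a fall by 0.85 ± 0.09 (limma adjusted p = 0.00050). The second (ILMN_2145670) had 10.55, 10.55 and 10.42 in shCypB, against 11.27, 11.17 and 10.97 in shCON, a fall by 0.64 ± 0.11 (adjusted p = 0.0034). Both probes separated the groups, with shCON 1.80-fold and 1.56-fold above shCypB. About 5.21% of tested probes fell more than the first probe.

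CCN1 and CCN2 encode cysteine-rich ligands of integrins and heparan sulphate proteoglycans, are immediate early genes and are the usual readouts of YAP activity. They also moved apart, by less than the genes above. CCN1 had signals of 11.95, 11.82 and 12.08 in shCypB, against 11.50, 11.30 and 11.73 in shCON. The groups were only 0.09 apart at their nearest arrays, and the change was 0.44 ± 0.14 (limma adjusted p = 0.036), a 1.36-fold rise with a 95% interval of 1.09 to 1.69. This call was lost in 4 of 6 fits that left out 1 array. The adjusted p was 0.094 without shCypB replicate 1, 0.12 without shCypB replicate 3, 0.080 without shCON replicate 1 and 0.096 without shCON replicate 2.

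CCN2 was read by a pair of probes. The first (ILMN_1699829) had signals of 12.38, 12.19 and 12.26 in shCypB, against 12.75, 12.64 and 12.73 in shCON. The second (ILMN_2115125) had 11.51, 11.16 and 11.20 in shCypB, against 11.77, 11.80 and 11.68 in shCON. The groups were apart with either probe, and CCN2 fell by 0.43 ± 0.10 (limma adjusted p = 0.011) and by 0.46 ± 0.12 (adjusted p = 0.019). The first probe was called in 6 of 6 fits that left out 1 array. The second was called in 2, with adjusted p of 0.064 and 0.070 without shCypB replicates 2 and 3, and 0.051 and 0.055 without shCON replicates 1 and 2. Before normalization between arrays the groups overlapped, with intensities of 4786 to 6014 in shCypB and 5090 to 7559 in shCON for the first probe. The separation appears after that step, and the first probe was also called lower with 75th percentile scaling (log2 change -0.41) and in the authors' processed table (-0.40).

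ANKRD1 encodes an ankyrin repeat protein of the nucleus and the muscle sarcomere, and is the only member whose product is not secreted. It had signals of 7.63, 8.39 and 7.87 in shCypB, against 8.41, 8.55 and 8.41 in shCON. All shCypB arrays were lower, but shCypB replicate 2 was only 0.01 below the lowest shCON array. The change of -0.49 ± 0.19 did not pass (limma adjusted p = 0.076), and its 95% interval of -0.93 to -0.05 allows a fall as large as that of TNC. Without shCypB replicate 2 the change was -0.71 (adjusted p = 0.0077).

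SPARC encodes osteonectin, a collagen-binding glycoprotein that counters cell spreading. It had signals of 11.57, 11.73 and 11.65 in shCypB, against 11.61, 11.32 and 11.75 in shCON. The groups overlapped, and the change of 0.09 ± 0.13 did not pass (limma adjusted p = 0.64). Before normalization between arrays, intensities were 3442 to 3562 in shCypB and 2590 to 3014 in shCON, without overlap, and the groups overlapped only after it. The 95% interval runs from -0.21 to 0.39, which leaves room for changes as large as 1.31-fold in the upward direction.

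FN1 encodes fibronectin, the adhesive glycoprotein that integrins assemble into fibrils. None of its 3 probes was tested. The first (ILMN_1675646) had intensities of 73.6, 92.6 and 66.5 on the shCypB arrays, against 87.6, 68.5 and 68.0 on the shCON arrays, and was detected only on shCypB replicate 2. The second (ILMN_1778237) had intensities of 64.3 to 68.6 in shCypB and 59.6 to 69.4 in shCON and was detected on 0 of 6 arrays. The third (ILMN_2366463) had intensities of 74.8 to 81.2 in shCypB and 82.5 to 94.1 in shCON and was detected only on shCON replicate 3. These values lie near the array medians of 75.4 to 82.3, and no statement on FN1 mRNA can be made from them. Which FN1 transcripts the probes read was not checked.

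**Figure D3:**
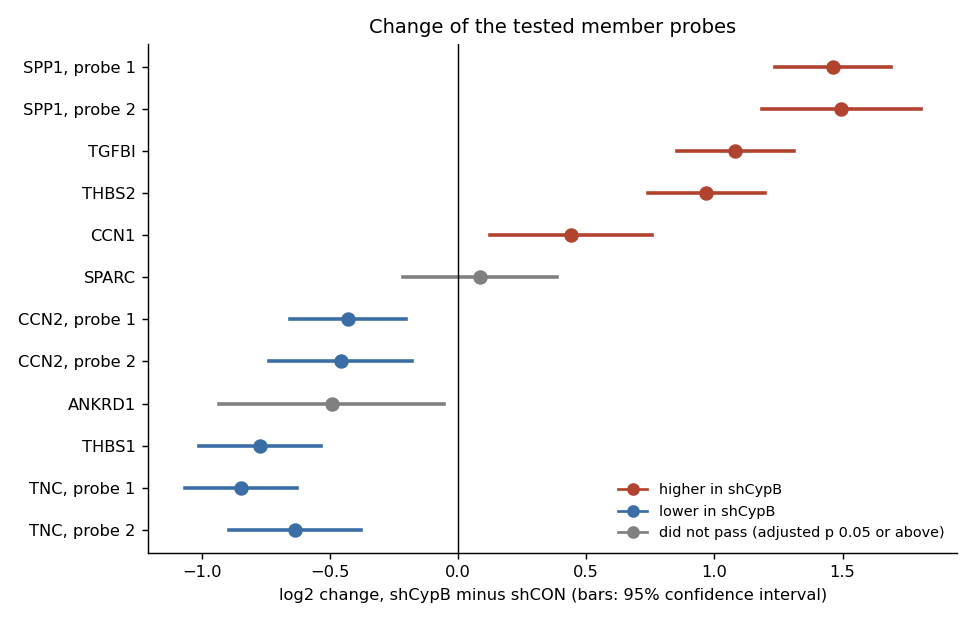
Log2 change (shCypB minus shCON) of the 12 tested member probes with 95% confidence intervals, coloured by whether and in which direction they passed the test. The probes run from 1.49 and 1.46 for SPP1 down to -0.85 for TNC, and probes of the same gene lie on the same side of 0.

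Several lists of related genes, also chosen with earlier results known, were set beside the members, with a gene represented by its brightest tested probe. The list of 19 further YAP and TEAD target genes had 18 tested members, of which 5 were higher, 3 lower and 10 did not pass, with a median log2 change of 0.13. Among all tested genes 23.1% were higher and 20.8% lower, so these shares are near the background. The call of LATS2 (0.64), among the 5, was lost without shCypB replicate 1, 2 or 3 or shCON replicate 2 (limma adjusted p of 0.052 to 0.092). The greatest rises were those of F3, which encodes tissue factor (4.01-fold, 95% interval 2.64 to 6.07, limma adjusted p = 0.00093), of NT5E, which encodes the ecto-nucleotidase CD73 (1.51 ± 0.22, adjusted p = 0.0017), and of the kinase gene NUAK2 (0.85 ± 0.12, adjusted p = 0.0013). F3 was detected on 2 of 3 shCON arrays, and the size of its change varied with the processing (log2 change of 1.22 to 2.25 over 13 alternatives), as did that of NT5E (0.87 to 1.73). The 3 that fell, named after their values were seen, were FOXF2, a forkhead factor gene undetected in shCypB (at least 1.67-fold lower), FJX1 (log2 change -0.72) and IGFBP3, an insulin-like growth factor binding protein gene (log2 change -0.47).

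The Hippo pathway core had 13 tested genes of 17, of which 2 were higher, 1 lower and 10 did not pass (median log2 change 0.18), beside 23.1% higher and 20.8% lower among all tested genes. YAP1, which encodes YAP, rose by 0.74 ± 0.11 (limma adjusted p = 0.0021). VGLL4, whose product competes with YAP for TEAD factors, rose by 0.93 ± 0.09 (adjusted p = 0.00030). TEAD2 had a mean signal of 10.21 in shCypB and 11.61 in shCON, and fell by 1.39 ± 0.10 (adjusted p = 0.00012). TEAD4 (log2 change 0.18) and TEAD3 (0.07) did not pass. TEAD1 and LATS1 were detected on 0 of 6 arrays and WWTR1, which encodes TAZ, on 1. Array signals speak to mRNA only, and the location or phosphorylation of YAP was not measured.

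Among cell surface receptors of matricellular proteins, 9 of 16 tested genes were higher, 1 lower and 6 did not pass, with a median log2 change of 0.47, where 23.1% of all tested genes were higher and 20.8% lower. SDC4, which encodes the syndecan that works with integrins on fibronectin, rose by 1.46 ± 0.14 (limma adjusted p = 0.00033). ITGA6 and ITGB8 rose by 1.09 ± 0.20 (adjusted p = 0.0042) and 1.02 ± 0.16 (adjusted p = 0.0021), each detected on 2 of 3 shCON arrays, with changes as low as 0.59 and 0.53 over 13 alternatives. The following receptors were picked after their values were seen, as textbook partners of the members. ITGAV (0.68 ± 0.14) and ITGB5 (0.81 ± 0.09), which encode subunits of an osteopontin and TGFBI receptor, were higher, as was the fibronectin receptor subunit gene ITGA5 (0.69 ± 0.09). The integrin subunit genes ITGB1 (0.02, limma adjusted p = 0.90) and ITGA4 (-0.12, adjusted p = 0.61) did not pass. Nor did ITGB3 (0.47, adjusted p = 0.087), which was detected on 1 of 3 shCON arrays. The osteopontin receptor gene CD44 did not pass by its brighter probe (0.22 ± 0.10, adjusted p = 0.12), while its other tested probe was called higher (0.35), and the thrombospondin receptor gene CD47 rose by 0.47 ± 0.12 (adjusted p = 0.018), a call lost without shCypB replicate 1 (adjusted p = 0.051) or shCypB replicate 3 (0.066). SDC1 fell (log2 change -0.75), and the thrombospondin receptor gene CD36 was detected on 0 of 6 arrays.

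The list of other matricellular genes held 20 genes, of which 7 were tested. Of these, 2 were higher, 3 lower and 2 did not pass (median log2 change -0.31), beside 23.1% higher and 20.8% lower among all tested genes. THBS3, which encodes another thrombospondin, had a mean signal of 6.57 in shCypB and 8.45 in shCON and fell by 1.88 ± 0.16 (limma adjusted p = 0.00018), more than THBS1. FBLN1, which encodes fibulin-1, fell by 1.10 ± 0.11 (adjusted p = 0.00040), while its 3 tested probes ranged from -1.10 to -0.01. SPOCK2, which encodes a proteoglycan related to SPARC, rose by 0.78 ± 0.12 (adjusted p = 0.0021) and was detected on 1 of 3 shCON arrays (0.39 to 0.88 over 13 alternatives). The CCN family members CCN3, CCN4, CCN5 and CCN6 were each detected on 0 of 6 arrays.

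CCN1, CCN2, THBS1 and TNC are also known to respond to SRF with its actin-regulated coactivators. As members they were left out of the list that follows. CCN1 was called higher (0.44), and CCN2, THBS1 and TNC were called lower. A list of SRF, its coactivator genes MRTFA and MRTFB and their target genes had 12 tested genes, of which 0 were higher, 7 lower and 5 did not pass (median log2 change -0.43), beside 23.1% higher and 20.8% lower among all tested genes. The 7 include SRF (-0.44, limma adjusted p = 0.0094) and MRTFA (-0.46, adjusted p = 0.037), and of the 9 tested target genes 5 were lower. The MRTFA call was lost without any one of shCypB replicates 1, 2 and 3 or shCON replicate 2 (adjusted p of 0.066 to 0.10). Among the 5 target genes, the call of VCL (-0.41) was lost without shCypB replicate 1 or 2 or shCON replicate 2 (limma adjusted p of 0.052 to 0.057). The smooth muscle genes TAGLN and ACTA2, both of the actin cytoskeleton, fell by 2.05 ± 0.12 (limma adjusted p = 5.1e-05) and 1.22 ± 0.10 (adjusted p = 0.00019). The other tested probe of TAGLN was also called lower, by less (-1.39). TGFB1I1, which encodes a focal adhesion protein, fell by 0.78 ± 0.09 (adjusted p = 0.00068) by its brighter probe, while its other tested probe, with a change of -0.13, was not called. Under all 15 alternatives for this list 0 genes were higher, and between 5 and 7 were lower.

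A list of TGF-beta responsive genes, which also holds the ligand and receptor genes TGFB1, TGFBR1 and TGFBR2, had 11 tested genes. Of these, 5 were higher, TGFBR2 among them, 2 were lower and 4 did not pass (median log2 change 0.38), beside 23.1% and 20.8% of all tested genes. TGFBR2, which encodes the type II receptor, had a mean signal of 10.38 in shCypB and 8.49 in shCON and rose by 1.88 ± 0.13 (limma adjusted p = 9.9e-05). COL1A1 rose by 1.72 ± 0.16 (adjusted p = 0.00026) and PMEPA1, a feedback inhibitor of SMAD signalling, by 0.80 ± 0.11 (adjusted p = 0.0011), beside the rise of TGFBI. The 2 that fell were ID3 and LOX (log2 changes -0.60 and -0.58). The ligand gene TGFB1 was detected on 0 of 6 arrays.

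**Figure D4:**
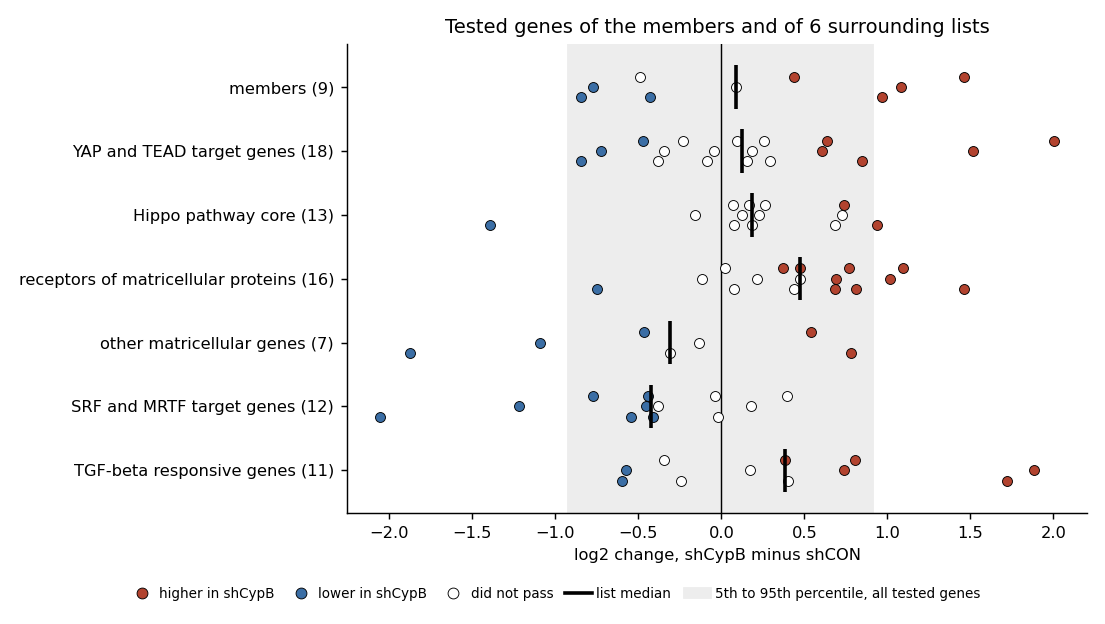
Log2 change (shCypB minus shCON) of every tested gene among the members and in the 6 surrounding lists (number tested in brackets), with filled points for called genes, a bar for each median and a grey band from the 5th to the 95th percentile of all tested genes. The SRF and MRTF list includes SRF, MRTFA and MRTFB and leaves out the members, such as CCN1, which was called higher. It has 7 called points, all below 0, whereas the members and the YAP and TEAD target genes have called points on either side.

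Of 6 markers of the glioma line, 5 were detected on all arrays, VIM, NES, GFAP, CD44 and SOX2, and S100B on none. In shCypB GFAP fell by 1.84 ± 0.14 on the log2 scale (limma adjusted p = 0.00013) and NES by 0.66 ± 0.10 (adjusted p = 0.0022), while SOX2 rose by 0.35 ± 0.11 (adjusted p = 0.045). VIM (-0.23) and CD44 (0.22) did not pass by their brighter probes, and the other probe of each was called (-0.39 and 0.35). Among 5 endothelial markers CDH5, KDR and TIE1 were detected on 0 of 6 arrays, and among 5 microglia and macrophage markers PTPRC was. Summed intensities were 330 to 368 in shCypB and 315 to 400 in shCON for the endothelial list, and 762 to 797 in shCypB and 733 to 827 in shCON for the microglia and macrophage list. Among microglia and macrophage markers CSF1R rose by 0.54 ± 0.10 (adjusted p = 0.0054). It was detected on 2 of 3 shCON arrays, with shCON signals of 5.38, 5.11 and 5.30 close to the lowest detected signals. AIF1 (-0.81, detected on 3 of 6 arrays) and CD14 (-0.49, detected on 5 of 6) did not pass. Of 5 fibroblast markers only FAP and COL3A1 were tested, and DCN, LUM and PDGFRA were detected on at most 2 arrays. The summed fibroblast intensity was 963 to 998 in shCypB and 850 to 900 in shCON, and FAP rose by 0.86 ± 0.12 (adjusted p = 0.0015), while COL3A1 did not pass (-0.44, adjusted p = 0.11). The endothelial marker VWF did not pass either (-0.52, adjusted p = 0.10). The part of these markers in the results was not tested.

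**Figure D5:**
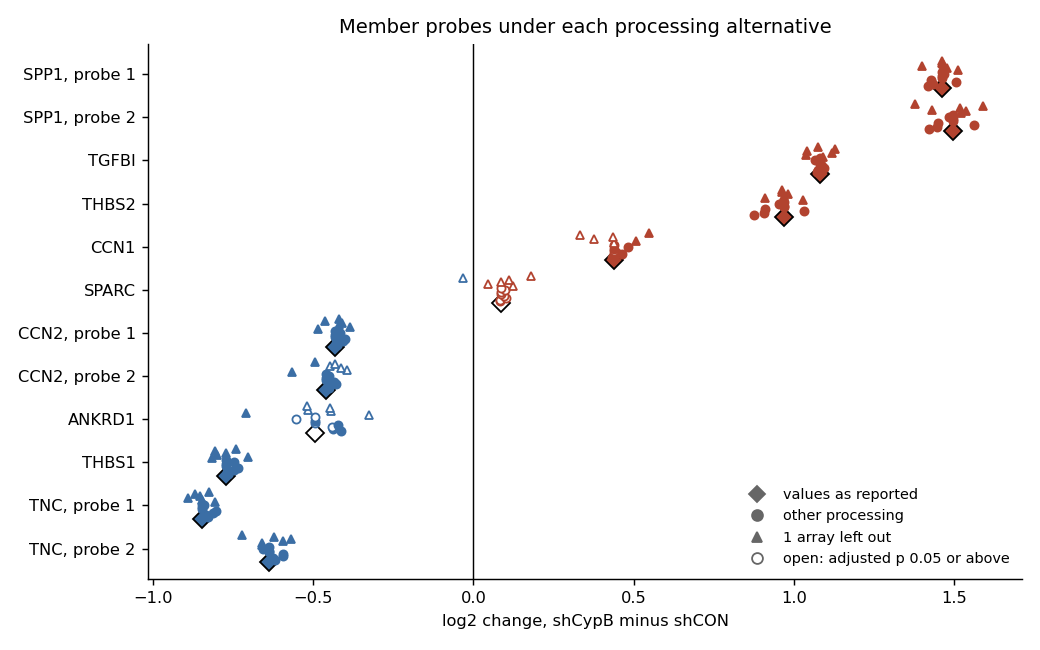
Log2 change (shCypB minus shCON) of the 12 tested member probes as reported (diamonds), under 8 other processing settings (circles) and with 1 array left out (triangles), with open symbols where the adjusted p was 0.05 or above. SPP1, TGFBI, THBS2, THBS1 and TNC stay filled throughout, CCN1, the second CCN2 probe and ANKRD1 change between open and filled, and SPARC is open throughout.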

How the data were processed

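Total RNA of 6 U251 samples was biotin labelled and hybridized to Illumina bead arrays, per the labels' protocols. The deposited intensity of each of 47231 probes is linear and not normalized between arrays, and comes with a detection p-value, per the file headers. The authors also deposited processed intensity values on a linear, uncentred scale. How these were normalized is not stated in the labels or headers, and Partek is named without a role in the submitters' processing notes. Those values served as an alternative.

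Signals were background corrected with limma 3.58.1 in R 4.3.3 (normexp, with control mean and spread inferred from detection p, offset 16), quantile normalized and log2 transformed. Probes with detection p below 0.05 on at least 3 arrays were fitted with lmFit and eBayes, with group as the only term, and p-values were adjusted over all 17608 tested probes by the Benjamini-Hochberg method. The fit was tested on simulated data. Errors beside log2 changes are standard errors. For a probe undetected in a whole group, the fold is a bound against the lowest detected signal of each array. Between 16597 and 18700 probes were detected per array, and 3 arrays a group limit the precision. With 3 arrays a side the smallest two-sided p of an exact permutation test is 0.1, so none was run.

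Symbols came from the platform annotation and were updated by Entrez identifier. The probe sequences were not used here. All members are named, and of each list up to 3 called genes with the greatest changes. Other genes were picked for naming after their values were seen. The members and lists were chosen with earlier results of these data known.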

Additional observations from a re-analysis of the deposited data

How the results depend on the processing

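SPP1, TGFBI, THBS2, THBS1, TNC and the first CCN2 probe kept their direction and their call under every alternative run (no background correction, an offset of 50, 75th percentile scaling, the authors' processed table, no filter, a strict filter, array weights, the replicate block, 1 array left out, and, for SPP1, TNC and CCN2, averaging over probes). CCN1 did not pass without the filter on dim probes (log2 change 0.44, adjusted p = 0.084), where more probes were adjusted for. ANKRD1 passed without background correction (-0.41, adjusted p = 0.023), with an offset of 50 (-0.44, adjusted p = 0.026), in the authors' processed table (-0.42, adjusted p = 0.017) and with the strict filter (-0.49, adjusted p = 0.031). SPARC changed sign without shCON replicate 2 (-0.034, adjusted p = 0.84). With 1 array left out, log2 changes ranged from 0.33 to 0.55 for CCN1, -0.57 to -0.39 for the second CCN2 probe, -0.71 to -0.33 for ANKRD1 and -0.034 to 0.18 for SPARC. The number of higher Hippo pathway genes moved to 4 without background correction, with an offset of 50, in the authors' table and with probes of a gene averaged. With detection p below 0.01 on all 6 arrays, which tests fewer genes, 3 YAP and TEAD target genes and 1 other matricellular gene were higher. Between 3 and 5 YAP and TEAD target genes were lower with 1 array left out, 5 of them without shCON replicate 1. The median log2 changes moved too, from -0.78 to -0.11 for other matricellular genes, 0.12 to 0.41 for the TGF-beta list and 0.35 to 0.62 for the receptors. Those of the members (-0.16 to 0.18) and of the YAP and TEAD target genes (-0.04 to 0.15) changed sign. Causes were not tested otherwise.

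No shared effect of the replicate number was visible. Deviations of same-numbered arrays from their group means correlated at -0.098, -0.109 and 0.0095, against -0.026 to 0.13 for differently numbered arrays. With 3 arrays a group these values cannot show whether the samples were prepared in pairs. With the replicate block, 5 member probes were higher and 5 lower, as without it, and the changes of CCN1 (0.44) and CCN2 (-0.43) passed in that fit. FN1 was fitted only without the filter, where its 3 probes did not pass (adjusted p of 0.22 to 0.93). FN1, detected on at most 1 array by any probe, is limited by signal over background. LATS2, ITGA6, ITGB8, ITGB3, SPOCK2, FOXF2, TEAD3, CSF1R, AIF1, CD14, VWF and PPIB were undetected on at least 1 array of a group, as was F3 by its brighter probe.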
